A study of Mus musculus with 17 samples.

Results

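The long noncoding RNAs that carry small nucleolar RNAs in their introns were represented by 9 genes, *Gas5*, *Zfas1*, *Snhg1*, *Snhg3*, *Snhg5*, *Snhg6*, *Snhg8*, *Snhg11* and *Snhg12*, which were followed in mouse pancreatic β cells kept for 3 days in low or high glucose. They are given as a list of gene symbols, which uses no measured value but was drawn up with earlier results of these data known, and are 9 of the 55357 genes in the deposited tables. All 9 were among the 22784 genes that passed the filter on low counts, which was applied to the 17 samples at once.

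Islets from male mice first recovered for 3 days at a glucose concentration between 2.8 and 16.7 mM, per the study's methods. The islets were then cultured at 2.8 or 16.7 mM, and single live tdTomato+ cells were sorted for polyA RNA sequencing. No sample from before this culture was measured, so that a fall in high glucose cannot be told apart from a rise in low glucose. Control cells (WT in the labels) came from mice with the Cre-inducible Rosa26 tdTomato reporter and the RIP-Cre transgene, in which the rat insulin promoter drives Cre, and gave 3 samples at 2.8 mM and 4 at 16.7 mM. *Pcbp2* βKO cells (PCBP2KO in the labels) came from RIPCre+;Pcbp2Fl/Fl;Tdtomato mice, which lose the RNA-binding protein PCBP2 in β cells, and gave 5 samples at each concentration. Cre and the reporter are thus shared by all 4 groups per the study's methods, the age of the mice is not given for these samples in the sources used here, and the labels do not say whether the replicates of a group came from separate animals, so that p values measure the spread between these samples. *Pcbp2* was at 35.0 to 73.4 CPM, which are counts scaled to the library total, in control samples and at 5.81 to 19.2 CPM in *Pcbp2* βKO samples, with no overlap.

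Small nucleolar RNAs (snoRNAs) guide the chemical modification and processing of ribosomal RNA, and most are cut out of introns after the host transcript is spliced. The spliced host RNAs are regarded as noncoding, and several are degraded in the cytoplasm by nonsense-mediated decay, which is coupled to translation. Many hosts, *Gas5* among them, begin with a 5′ terminal oligopyrimidine (5′TOP) tract, as do the mRNAs of ribosomal proteins, and the translation of such RNAs is set by the mTORC1 pathway. Mature snoRNAs have no polyA tail, so that a polyA library reads the hosts and not their products.

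The hosts lie on 6 chromosomes in the GENCODE annotation of GRCm39. *Gas5* spans chr1:160861793-160866118 on the plus strand and holds 10 annotated snoRNA genes, *Snhg1* spans chr19:8700319-8703812 on the plus strand and holds 8, and *Snhg12* spans chr4:132035905-132038762 on the plus strand and holds 5. *Zfas1* (chr2:166903619-166907799, plus strand) holds 3. *Snhg3* (chr4:132075325-132080997, minus strand), *Snhg5* (chr9:88377321-88405615, minus strand) and *Snhg11* (chr2:158217558-158228071, plus strand) hold 2 each, and *Snhg6* (chr1:9926809-10014504, minus strand) and *Snhg8* (chr3:123301192-123302578, minus strand) hold 1 each. *Snord80* in *Gas5* and *Snora16a* in *Snhg12* have duplicate, overlapping entries that are counted here. Of the 34 snoRNA genes, which therefore have 32 symbols, all 32 symbols were listed in the deposited tables, 10 had any estimated count and 0 passed the filter on low counts. The snoRNAs themselves were therefore not measured here.

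The following 30 bases around the annotated start of each host are shown because the 5′TOP class is defined by the first bases of the RNA. They come from the RefSeq promoter table (GRCm38.p6), were placed on GRCm39 by exact match, and run from 10 bases before the start to the 20th base of the transcript. Capitals mark a C followed by at least 4 bases that are each C or T, searched on the transcribed strand alone, with the C within 5 bases of the start. *Gas5* has 2 starts in the table and *Snhg6* has no entry.
Gas5, first start, chr1:160862161-160862190, plus strand: gcgggcccgcgagctcgacagcccggagcc
Gas5, second start, chr1:160862726-160862755, plus strand: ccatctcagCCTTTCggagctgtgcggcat
Zfas1, chr2:166904844-166904873, plus strand: tgcgccccgggcggccgcaggtctcggctg
Snhg1, chr19:8700841-8700870, plus strand: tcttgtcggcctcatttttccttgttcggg
Snhg3, chr4:132080978-132081007, minus strand: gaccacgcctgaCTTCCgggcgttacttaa
Snhg5, chr9:88404931-88404960, minus strand: gcggtgaaccgggctcgttcttttacgacg
Snhg8, chr3:123301966-123301995, minus strand: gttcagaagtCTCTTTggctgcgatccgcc
Snhg11, chr2:158217623-158217652, plus strand: tgcggcactcactcacgcactcagcctgct
Snhg12, chr4:132035979-132036008, plus strand: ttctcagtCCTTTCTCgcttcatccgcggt

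Such a tract was present in 4 of the 8 hosts with an entry, *Gas5* at its second start, *Snhg3*, *Snhg8* and *Snhg12*. The tract was found at 21.2% of the 27025 genes of the table, and at 28 of the 58 ribosomal protein genes that have an entry. Among the other lists used below, it was found at 4 of 8 assembly factors and 3 of 7 core proteins of snoRNA particles. The further hosts had it at 4 of 10 and the other 5′TOP mRNAs at 4 of 11. It was at 3 of 11 regulators of mTORC1 and 5′TOP RNAs and at 1 of 9 factors of nonsense-mediated decay. A match is a description of these letters, and a start annotated a few bases away can hide or create one.

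Snord47 and Snora24 are printed as examples of what the introns hold. Snord47, from an intron of *Gas5*, is of the C/D class that guides ribose methylation, and capitals mark the letters GTGATGA of its C box and CTGA of its D box. Snora24, from *Snhg8*, is of the H/ACA class that guides pseudouridylation, and capitals mark the ACA near its 3′ end. Both were read from the GRCm39 genome.
Snord47, chr1:160865652-160865728, plus strand: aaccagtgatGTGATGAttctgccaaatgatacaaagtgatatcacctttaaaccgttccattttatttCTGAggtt
Snora24, chr3:123301586-123301715, minus strand: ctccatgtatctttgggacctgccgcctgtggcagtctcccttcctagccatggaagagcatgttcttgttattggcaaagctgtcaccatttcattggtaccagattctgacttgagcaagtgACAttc

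Total estimated counts were between 47385513 and 82419400 per sample. *Ins1* and *Ins2* took 5.04% to 10.5% of the counts at 2.8 mM and 22.3% to 33.1% at 16.7 mM, so that values are given as CPM after TMM scaling of the library sizes unless stated otherwise. With these factors the median log2 fold change over all genes tested was 0.04 for high against low glucose in control cells and 0.01 in *Pcbp2* βKO cells. β cell genes dominated the marker lists. Several other marker lists, however, differed with glucose in their summed level. The alpha cell markers *Gcg* and *Irx2* had a summed level of 625 to 2543 CPM in control cells at 2.8 mM against 260.4 to 1448 CPM at 16.7 mM, and of 1452 to 9160.2 against 172 to 1301 CPM in *Pcbp2* βKO cells. *Ppy*, the hormone gene of PP cells, was at 797 to 835 CPM against 224 to 631 CPM in control cells and at 992 to 5112 against 290.3 to 1142 CPM in *Pcbp2* βKO cells. Ductal markers (*Krt19*, *Spp1*, *Cftr*) summed to 21.8 to 116 CPM against 51.1 to 801 CPM in control cells and to 7.01 to 83.3 against 12.6 to 143 CPM in *Pcbp2* βKO cells. The study, however, lists *Cftr* among genes lower in *Pcbp2*-deficient β cells, so that this sum may hold β cell RNA. Macrophage markers (*Ptprc*, *Adgre1*, *Csf1r*) were at 1.21 to 6.54 CPM against 0.49 to 1.41 CPM in control cells and, without overlap, at 2.92 to 8.66 against 0.27 to 1.21 CPM in *Pcbp2* βKO cells. The 6 proliferation markers, *Mki67* among them, were at 3.99 to 5.93 CPM against 8.18 to 62.2 CPM in control cells and at 4.07 to 12.8 against 2.18 to 271 CPM in *Pcbp2* βKO cells. Acinar, endothelial and stellate markers summed to at most 1.12 CPM in every sample. The part of these other cells in the values below was not tested, and fewer cells of a type cannot be told apart from less RNA per cell in bulk samples.

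*Gas5* was the most abundant host. Per length, in control cells at 2.8 mM, it stood at 584 ± 52.5 TPM (SD, n = 3), a unit that divides counts by transcript length and scales them to a fixed total, followed by *Snhg1* (88.7 ± 43.4 TPM), *Zfas1* (68.8 ± 23.3 TPM), *Snhg6* (67.3 ± 21.5 TPM), *Snhg8* (53.7 ± 16.5 TPM) and *Snhg3* (48.3 ± 7.11 TPM). *Snhg5* (31.4 ± 11.3 TPM), *Snhg12* (24.8 ± 9.03 TPM) and *Snhg11* (10.3 ± 4.67 TPM) were the lowest. In this order the samples of *Gas5* lay above all others and those of *Snhg11* below all others, and each pair of neighbors between them overlapped. At 16.7 mM *Gas5* was still first in control cells (128 ± 108 TPM, n = 4), but *Snhg3* was second (36.2 ± 13.0 TPM).

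In control cells, 7 of the 9 hosts were lower in high glucose. *Zfas1*, *Snhg1*, *Snhg12*, *Snhg5*, *Snhg6*, *Gas5* and *Snhg8* were called lower at 16.7 mM than at 2.8 mM, by 2.00-fold to 5.50-fold, while *Snhg3* and *Snhg11* had positive log2 fold changes that did not pass the test. Calls required a fold change over 1.5 together with an adjusted p below 0.05, from the quasi-likelihood F test of edgeR with Benjamini-Hochberg adjustment over all genes tested. Of all genes tested, 6.69% were called lower and 7.15% higher in this comparison. The median log2 fold change of the 9 hosts was -1.27.

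*Gas5*, named for its rise in growth-arrested cells, was at 194, 223 and 162 CPM in control cells at 2.8 mM and at 57.6, 61.7, 70.0 and 136 CPM at 16.7 mM. The groups did not overlap, and replicate 4 at 16.7 mM was high. The log2 fold change was -1.25 ± 0.33 (SE, adjusted p = 0.0163 by edgeR).

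*Zfas1*, which starts beside *Znfx1* on the opposite strand, had the lowest estimate, within its error of that of *Snhg1*. It was at 34.0, 53.9 and 23.9 CPM in low glucose and at 4.76, 5.72, 3.24 and 13.3 CPM in high glucose, again without overlap and with replicate 4 highest. Its log2 fold change was -2.46 ± 0.50 (adjusted p = 0.00381 by edgeR).

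*Snhg1*, the host of several C/D snoRNAs, was at 28.2, 62.6 and 25.01 CPM in low glucose and at 5.50, 8.87, 7.64 and 12.7 CPM in high glucose. Here too the groups stood apart, and replicate 2 at 2.8 mM was over 2 times the other low-glucose samples. The log2 fold change was -2.15 ± 0.38 (adjusted p = 0.00158 by edgeR).

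*Snhg5*, the host of the Snord50 pair, was at 23.3, 33.7 and 16.4 CPM in low glucose against 6.99, 5.33, 6.23 and 14.6 CPM in high glucose. *Snhg12*, whose introns hold mainly H/ACA snoRNAs, was at 8.51, 13.9 and 6.40 CPM against 2.62, 1.92, 2.59 and 5.81 CPM. In both, replicate 4 at 16.7 mM came close to the lowest low-glucose sample without reaching it. The log2 fold changes were -1.56 (adjusted p = 0.00562 by edgeR) for *Snhg5* and -1.57 (adjusted p = 0.0249 by edgeR) for *Snhg12*.

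*Snhg6*, the host of Snord87, was at 16.3, 25.4 and 11.7 CPM in low glucose and at 6.85, 6.57, 7.07 and 9.14 CPM in high glucose. *Snhg8* was at 13.4, 18.5 and 8.34 CPM and at 6.36, 6.47, 5.33 and 8.71 CPM. The groups of *Snhg6* did not overlap, whereas replicate 4 of *Snhg8* in high glucose lay above its lowest low-glucose sample, replicate 3. The log2 fold changes were -1.27 (adjusted p = 0.0285 by edgeR) and -0.997 (adjusted p = 0.0357 by edgeR). In all, 6 of the 9 hosts were lower in every high-glucose sample, against 12.3% of all genes tested.

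The 2 other hosts went against the rest. *Snhg3* carries Snora73a and Snora73b, which take part in ribosomal RNA processing. It was at 9.43, 13.96 and 9.68 CPM in low glucose and at 11.6, 21.2, 11.7 and 14.1 CPM in high glucose, with overlap, and its log2 fold change of 0.41 ± 0.22 was not called (adjusted p = 0.222 by edgeR). *Snhg11* was at 20.5, 27.6 and 53.6 CPM in low glucose and at 43.0, 92.1, 82.8 and 29.0 CPM in high glucose. The groups overlapped as well, and its log2 fold change of 0.86 ± 0.39 was not called (adjusted p = 0.151 by edgeR). The same replicate numbers deviated together in the control groups, and with the replicate number as a block *Snhg11* was called higher, with a log2 fold change of 1.14 (adjusted p = 0.00358 by edgeR, range over the alternatives 0.00358 to 0.727). The sign of both depended on the unit. On TPM, in which insulin takes much of the total and the median of all genes moved by -0.24 on the log2(TPM + 1) scale, the log2 fold changes were -0.47 for *Snhg3* and -0.16 for *Snhg11*, and neither was called by limma.

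**Figure D1:**
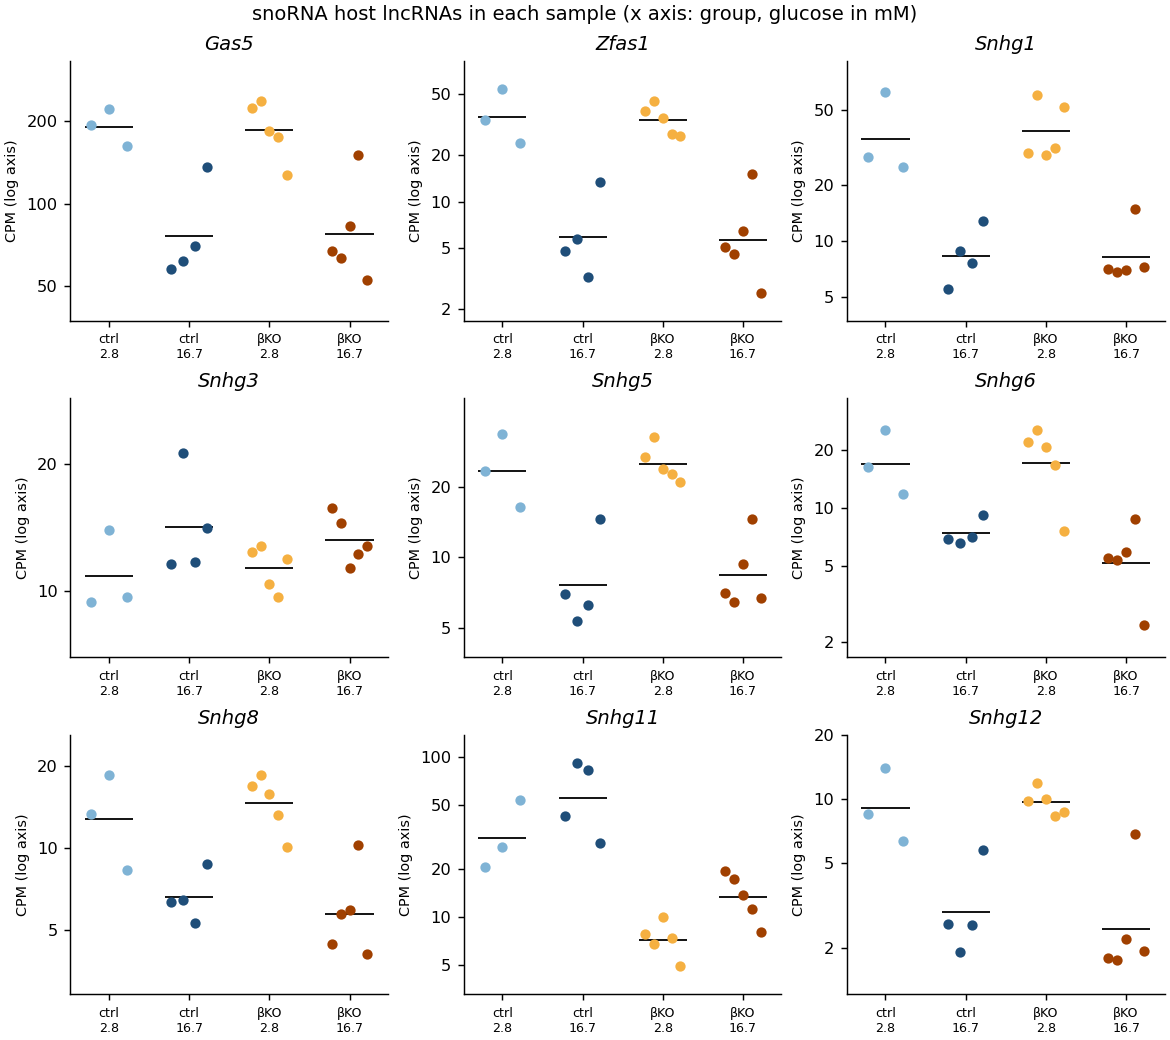
Level of each of the 9 host lncRNAs in each of the 17 samples, in TMM-scaled CPM on a log axis, by group (control or Pcbp2 βKO cells at 2.8 or 16.7 mM glucose); points are samples in order of replicate number from left to right and lines are geometric means. The 7 hosts other than Snhg3 and Snhg11 were lower in high glucose in both genotypes, with replicate 4 the highest of its high-glucose group, whereas Snhg11 differed between the genotypes, with 4.94 to 19.4 CPM in βKO samples and 20.5 to 92.1 CPM in control samples.

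The same 7 hosts were lower in high glucose in *Pcbp2* βKO cells, and *Snhg11* was called higher. Of all genes tested, 10.4% were called lower and 13.4% higher in this comparison, and the median log2 fold change of the hosts was -1.53. *Zfas1* was at 38.5, 44.8, 35.0, 27.2 and 26.7 CPM at 2.8 mM and at 5.10, 4.56, 6.45, 15.2 and 2.56 CPM at 16.7 mM. *Snhg1* was at 29.5, 60.8, 28.9, 31.3 and 52.3 CPM and at 7.08, 6.82, 7.01, 14.8 and 7.21 CPM. Neither overlapped between the concentrations, and 4 of the 9 hosts in all were lower in every high-glucose sample, against 10.8% of all genes tested. The log2 fold changes were -2.35 ± 0.43 for *Zfas1* (adjusted p = 0.000491 by edgeR) and -2.24 ± 0.32 for *Snhg1* (adjusted p = 6.66e-05 by edgeR).

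*Gas5* was at 224, 237, 185, 175 and 127 CPM in low glucose and at 67.2, 63.4, 82.6, 150 and 52.3 CPM in high glucose. Replicate 4 in high glucose overlapped replicate 5 in low glucose, and the remaining samples stood apart. *Snhg6* showed the same overlap, with 7.59 CPM in replicate 5 of low glucose against 8.76 CPM in replicate 4 of high glucose. The log2 fold changes were -1.19 ± 0.28 (adjusted p = 0.00348 by edgeR) for *Gas5* and -1.72 ± 0.32 (adjusted p = 0.000622 by edgeR) for *Snhg6*.

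*Snhg5*, *Snhg8* and *Snhg12* fell by 1.53, 1.29 and 1.74 on the log2 scale, with adjusted p values by edgeR of 0.00064, 0.00113 and 0.0023. *Snhg12* was at 8.38 to 11.9 CPM in low glucose and at 1.80, 1.77, 2.22, 6.87 and 1.94 CPM in high glucose, so that replicate 4 stood at over 3 times the next sample. *Snhg3* was at 9.66 to 12.8 CPM and 11.3 to 15.7 CPM and was not called (log2 fold change 0.22, adjusted p = 0.393 by edgeR). On TPM its change was negative and called lower by limma, with a log2 fold change of -0.82 (adjusted p = 0.00154, range over the alternatives 0.00142 to 0.618), beside a median of -0.33 over all genes. On this log2(TPM + 1) scale 8486 of the 22784 genes tested were called lower and 345 higher.

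*Snhg11* was at 7.75, 6.71, 9.97, 7.39 and 4.94 CPM in low glucose and at 19.4, 17.2, 13.8, 11.3 and 7.98 CPM in high glucose in these cells. The lowest high-glucose sample, replicate 5, lay below the highest low-glucose sample, replicate 3. The log2 fold change was 0.92 ± 0.32 (adjusted p = 0.0395 by edgeR), a call that was lost when any 1 of 7 samples was left out (highest adjusted p 0.107) and when libraries were scaled by total counts alone (log2 fold change 0.41, adjusted p = 0.319 by edgeR, range over the alternatives 0.00229 to 0.543). On TPM the change was negative, at -0.18, and not called by limma.

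Each high-glucose group held a replicate 4 with more host RNA than its group. Over all genes tested, the deviations of samples with different numbers correlated at -0.263 to 0.186 between these groups. Those of both replicate 4 samples correlated at 0.354. Without these 2 samples, a choice made after the values had been seen, the same 7 hosts were lower in both genotypes, the median log2 fold change of the 9 hosts went from -1.27 to -1.62 in control cells and from -1.53 to -1.79 in *Pcbp2* βKO cells, and *Snhg11* was called higher in control cells too (log2 fold change 1.10, adjusted p = 0.043 by edgeR). In control cells, however, the calls rested on few samples. Leaving out 1 sample at a time gave between 3 and 8 called hosts. It was 3 without replicate 2 at 2.8 mM or without replicate 1 or 2 at 16.7 mM, and 4 without replicate 1 at 2.8 mM or replicate 3 at 16.7 mM, and *Zfas1*, *Snhg1* and *Snhg5* were called lower in each of these fits. Over all genes, leaving out 1 control sample gave 1382 to 4480 calls, against 1629 higher and 1524 lower with all samples, and the log2 fold changes of the 7 hosts stayed negative, between -3.01 and -0.70. In *Pcbp2* βKO cells it was 7 or 8 throughout.

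**Figure D2:**
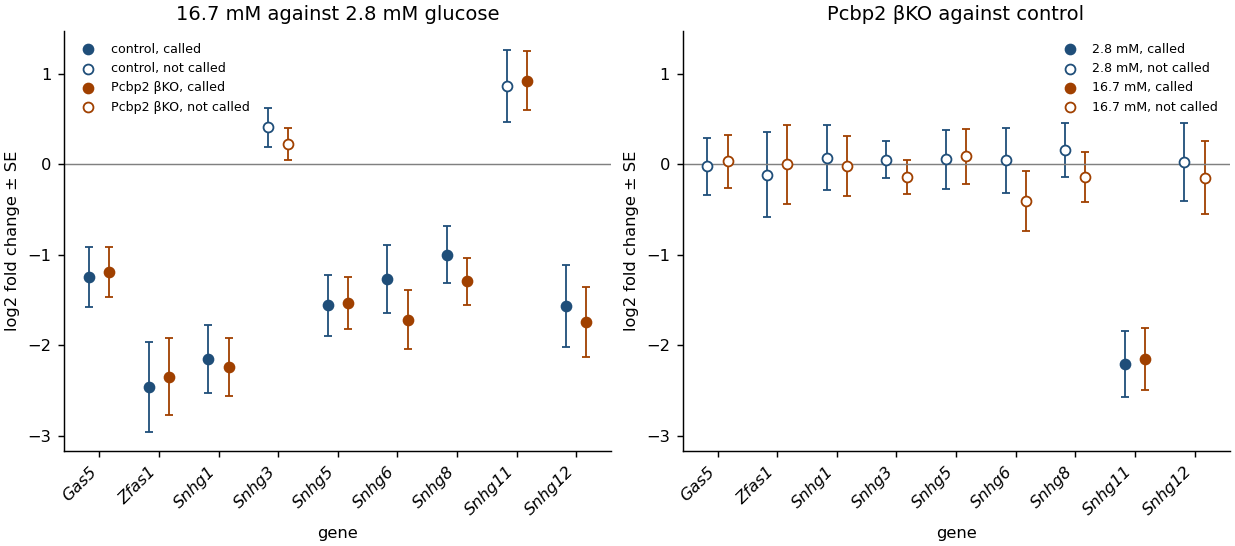
Log2 fold changes (edgeR, error bars 1 SE) of the 9 hosts for 16.7 mM against 2.8 mM glucose in each genotype (left) and for Pcbp2 βKO against control cells at each concentration (right); filled points passed the thresholds of adjusted p under 0.05 and fold change over 1.5. The same 7 hosts fell with glucose in both genotypes, and Snhg11 alone was called between the genotypes, at -2.21 and -2.15.

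Loss of PCBP2 was accompanied by a lower level of 1 host, *Snhg11*. In low glucose its control samples (20.5 to 53.6 CPM) all lay above the *Pcbp2* βKO samples (4.94 to 9.97 CPM), and in high glucose the control samples (29.0 to 92.1 CPM) all lay above the *Pcbp2* βKO samples (7.98 to 19.4 CPM). The fold difference was 4.61 at 2.8 mM (log2 fold change -2.21 ± 0.36, adjusted p = 0.00176 by edgeR) and 4.43 at 16.7 mM (log2 fold change -2.15 ± 0.34, adjusted p = 0.00156 by edgeR), against 1.78% and 1.42% of all genes called lower. Groups without overlap and with lower *Pcbp2* βKO samples were found for 6.88% and 2.64% of all genes. This call was kept in each alternative fit that was run. The other 8 hosts were not called at either concentration. Their log2 fold changes were between -0.11 and 0.16 at 2.8 mM and between -0.41 and 0.09 at 16.7 mM, and the 95% intervals reached, for example, -0.65 to 0.60 for *Gas5* at 2.8 mM and -0.54 to 0.61 at 16.7 mM.

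Whether the glucose response of the hosts differed between genotypes was tested as an interaction. For the interaction of genotype and glucose, 0 of the 9 hosts were called by edgeR, against 0.00439% of all genes tested, 0 had an unadjusted p under 0.05, and 0 were called by DESeq2 or limma. The interaction estimates lay between -0.45 (*Snhg6*, SE 0.49) and 0.11 (*Zfas1*, SE 0.64) on the log2 scale, and the 95% intervals reached from -1.41 to 0.51 for *Snhg6*, from -1.14 to 1.36 for *Zfas1*, from -1.32 to 0.98 for *Snhg12* and from -0.79 to 0.90 for *Gas5*. Differences in response within these intervals remain possible. Larger ones may also have gone uncalled, since calls were adjusted over all genes tested and these intervals are not. The glucose comparisons and the genotype comparisons share samples and are given side by side as separate readings.

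Transcripts of the hosts were split into those that the annotation calls retained-intron and all others, a split chosen after transcript values had been seen. In control cells the called decreases lay in the second class. In control cells the summed level of the other transcripts of *Gas5* went from 173, 202 and 137 CPM to 34.4, 35.6, 37.0 and 111 CPM. This sum was called lower, at -1.64 on the log2 scale (adjusted p = 0.0205 by edgeR). The retained-intron transcripts of *Gas5* were at 24.7, 22.4 and 24.0 CPM in low glucose and at 23.0, 25.9, 33.4 and 26.2 CPM in high glucose, with overlap and a log2 fold change of 0.19 that was not called (adjusted p = 0.522 by edgeR).

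*Snhg1* gave a like picture. Its other transcripts went from 24.9, 57.3 and 21.3 CPM to 3.01, 4.77, 4.37 and 10.04 CPM (log2 fold change -2.63, adjusted p = 0.00226 by edgeR), while its retained-intron transcripts were at 3.70, 5.64 and 3.44 CPM and at 2.46, 4.06, 3.31 and 2.83 CPM (log2 fold change -0.43, adjusted p = 0.443 by edgeR). The former did not overlap between the concentrations and the latter did. For *Zfas1*, *Snhg5* and *Snhg8* the other transcripts had log2 fold changes of -2.58, -2.22 and -1.17, all called, and the retained-intron transcripts of -0.08, -0.69 and 0.45, none called. Of all genes, 3.25% of retained-intron sums and 6.42% of the other sums were called lower. Whether the responses of both sums of a gene differ was not tested.

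In *Pcbp2* βKO cells the other transcripts of these 5 hosts fell by 1.53 to 2.70 on the log2 scale and all were called, against 10.2% of such sums called lower over all genes. The retained-intron transcripts of *Gas5* were at 18.2, 17.5, 22.01, 20.2 and 18.1 CPM in low glucose and at 25.6, 25.4, 35.2, 30.2 and 21.1 CPM in high glucose. Their difference of 0.52 on the log2 scale had an adjusted p of 0.0109 by edgeR but did not reach the fold threshold. Those of *Snhg5* were called lower (log2 fold change -0.67, adjusted p = 0.0404 by edgeR), and those of *Snhg1*, *Zfas1* and *Snhg8*, with log2 fold changes of -0.56, 0.79 and 0.69, were not called. Of all genes, 7.55% of retained-intron sums were called lower and 8.69% higher.

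**Figure D3:**
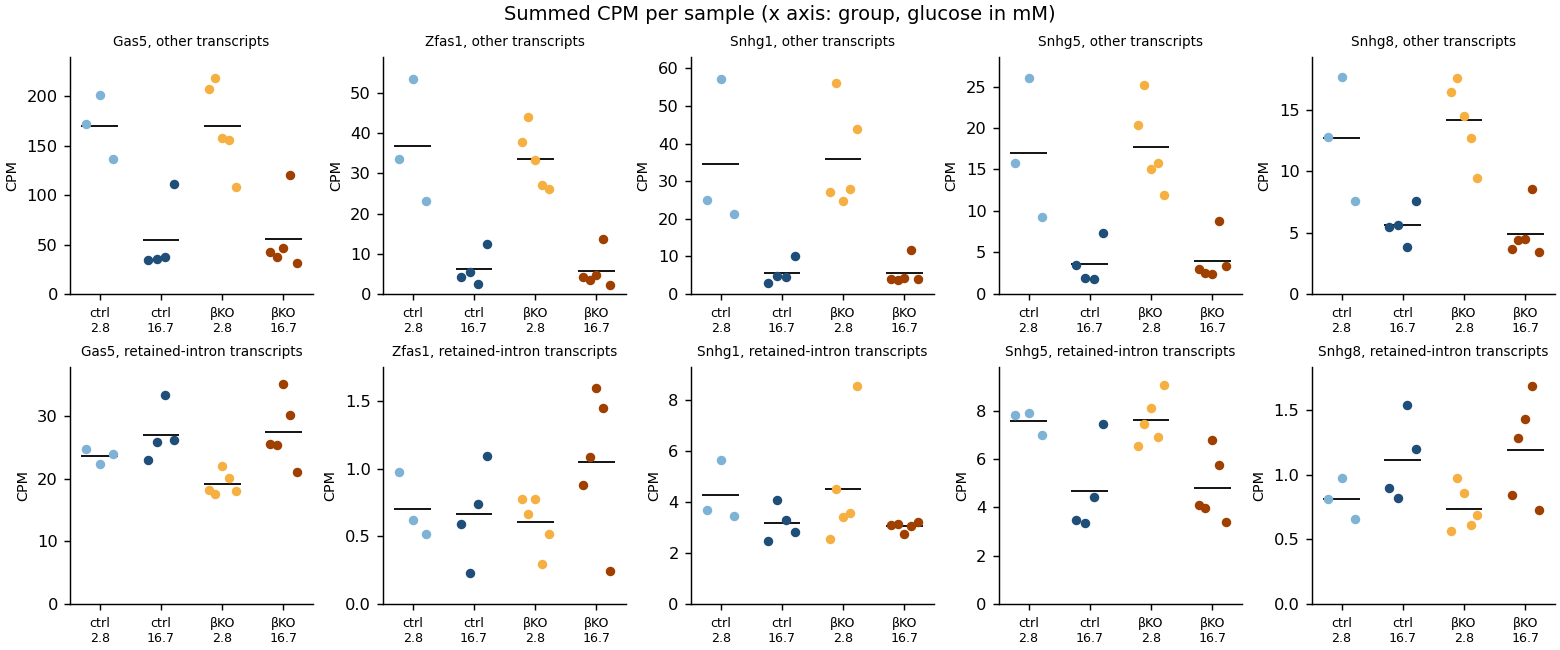
Summed CPM per sample of the transcripts annotated as retained-intron (bottom row) and of all other transcripts (top row) of the 5 hosts called lower that have both kinds, by genotype and glucose; points are samples and lines are means. The other transcripts of Gas5 dropped from 137 to 202 CPM to 34.4 to 111 CPM in control cells, while its retained-intron transcripts stayed between 22.4 and 33.4 CPM.

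The share of a host's counts on retained-intron transcripts was higher in high glucose for the 5 hosts called lower that have both kinds. For *Gas5* it was 12.5% ± 2.47 (SD, n = 3) in low and 37.2% ± 12.5 (n = 4) in high glucose in control cells, and 10.7% ± 2.90 and 36.2% ± 9.24 (n = 5 each) in *Pcbp2* βKO cells. For *Snhg1* it was 11.9% ± 2.62 and 39.0% ± 11.4 in control cells, and for *Zfas1* 2.05% ± 0.85 and 11.8% ± 8.14. For *Snhg11* the means went the other way, with 8.86% ± 2.63 and 6.41% ± 0.75 in control cells, against 22.7% ± 6.41 and 16.6% ± 4.51 in *Pcbp2* βKO cells. Replicate 4 in high glucose had the lowest share of *Gas5*, at 19.0% in control and 20.1% in *Pcbp2* βKO cells. *Snhg3*, *Snhg6* and *Snhg12* have no transcript annotated as retained-intron.

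Most of the retained-intron transcripts still hold a snoRNA. In the annotation, 18 of the 20 retained-intron transcripts of *Gas5*, 13 of 14 of *Snhg1*, 15 of 18 of *Snhg5*, 3 of 4 of *Zfas1* and 1 of 1 of *Snhg8* contain at least 1 whole snoRNA gene in an exon, and none of the other transcripts of *Gas5*, *Zfas1*, *Snhg5* and *Snhg8* does. However, 1 of the 4 other transcripts of *Snhg1* and 8 of the 10 of *Snhg12* do, so that for these hosts the classes do not separate the transcripts by their snoRNA content. Kallisto divides read pairs that match several of these overlapping transcripts by estimation, so that the split is less certain than the sum. Tested one transcript at a time, 5 of the 74 host transcripts that passed the filter were called in control cells, 1 higher and 4 lower, against 2.22% of all transcripts called higher and 2.46% lower, and with the replicate number as a block 11 were called, 2 higher and 9 lower. The 4 that were lower, Gas5-224, Snhg1-211, Snhg6-203 and Zfas1-205, are spliced forms, with log2 fold changes between -2.71 and -1.70. The 1 higher transcript was Snhg5-221, a retained-intron form near the floor, with a mean of 0.14 TPM over all samples. It took 0% of the *Snhg5* counts in control cells at 2.8 mM, so that its log2 fold change of 8.32 ± 2.18 (SE) has no measured base.

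Among the transcripts of *Snhg11*, the ones called between genotypes at 2.8 mM were Snhg11-201, Snhg11-205, Snhg11-206 and Snhg11-207, with log2 fold changes from -3.00 to -2.18, against 0.464% of all transcripts called lower. Snhg11-201 and Snhg11-206 have the same sequence in the reference and thus hold the same counts. The retained-intron sum of *Snhg11* was 2.07 to 3.11 CPM in control and 1.304 to 1.97 CPM in *Pcbp2* βKO cells at 2.8 mM (log2 fold change -0.77, adjusted p = 0.36 by edgeR), while the other transcripts were at 18.8 to 50.0 CPM and 3.47 to 7.76 CPM (log2 fold change -2.45, adjusted p = 0.00118 by edgeR).

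Genes of the translation machinery were lower in high glucose as well. In control cells 73 of 79 cytosolic ribosomal protein genes were called lower, with a median log2 fold change of -1.10 beside -1.27 for the hosts, and in *Pcbp2* βKO cells all 79 were, with a median of -1.23 beside -1.53. *Rpl4* (log2 fold change -1.10) and *Rplp0* (-0.70) were the most abundant of those called in control cells, and *Rpl41* (-0.52) and *Rps29* (-0.43) the most abundant of those not called. The estimates for *Zfas1* and *Snhg1* were below that of every ribosomal protein gene, the lowest of which was at -2.01 in control cells and -2.09 in *Pcbp2* βKO cells, and this difference was not tested. Of 17 other 5′TOP mRNAs, mostly of translation factors, 15 were called lower in control cells (median -0.98), among them *Eef1a1* (-1.14) and *Eef2* (-1.27), which bring tRNA to and move the ribosome along the mRNA. *Pabpc1* (-0.56, adjusted p = 0.0116 by edgeR) did not reach the fold threshold and *Hnrnpa1* (0.63, adjusted p = 0.0847 by edgeR) did not pass the test, so that neither was called.

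The 12 further gene entries for snoRNA host lncRNAs were spread more widely, with a median log2 fold change of -0.48 in control and -0.86 in *Pcbp2* βKO cells. In control cells 5 were called lower, among them *Snhg15* (-1.16), *Snhg16* (-2.18) and *Snhg17* (-1.64), and 1 higher, *Snhg18* (1.60), and 6 were not called, such as *Snhg20* (-0.59). Of the 2 entries for *Snhg4*, that at -2.75 was called lower and that at -0.18 was not called. In *Pcbp2* βKO cells 7 of the 12 entries were called lower and *Snhg18* was again the 1 called higher. In control cells 0 were called higher when any 1 of 6 of the 7 control samples was left out, and 3 lower without replicate 2 at 2.8 mM. None was called between genotypes at either concentration.

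The genes of proteins that bind and assemble snoRNAs had smaller median changes. Of 8 core proteins of snoRNA particles, 3 were called lower in control cells (median -0.61), among them *Nop58* (-0.79) and the methyltransferase gene *Fbl* (-0.65), and *Snu13* (-0.36) and *Nop56* (-0.31) were not called. Of 10 assembly factors 4 were called lower (median -0.53), *Ruvbl2* (-0.75) and *Nufip1* (-1.18) among them. Of 10 factors of nonsense-mediated decay, 1 was called, *Upf3b*, which was higher (0.62), and the median was -0.18. Of 12 regulators of mTORC1 and 5′TOP RNAs, 2 were called lower, *Cnbp* (-0.72) and the translation inhibitor *Eif4ebp1* (-0.92), and the median was 0.08. With the replicate block, 5 core proteins were called lower, and 1 decay factor lower beside 1 higher. These counts rested on single samples. Leaving out 1 control sample gave 0 to 5 core proteins called lower (0 without replicate 2 of either group) and 1 to 5 assembly factors (1 without replicate 2 and 2 without replicate 1 at 2.8 mM). It left 0 decay factors called without replicate 1 or 2 at 2.8 mM or replicate 3 at 16.7 mM, and 0 regulators without replicate 2 at 2.8 mM. By total counts alone 7 core proteins, 7 assembly factors and 5 decay factors were called lower and 0 higher. Under that scaling, however, 4055 of the 22784 genes tested were called lower and 782 higher, and the median log2 fold change of all genes was -0.35. Between genotypes, 1 ribosomal protein gene, *Rpl21*, was called higher (0.88; 0.255% of all genes were) and *Mtor* was called lower (-0.75), both at 2.8 mM.

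**Figure D4:**
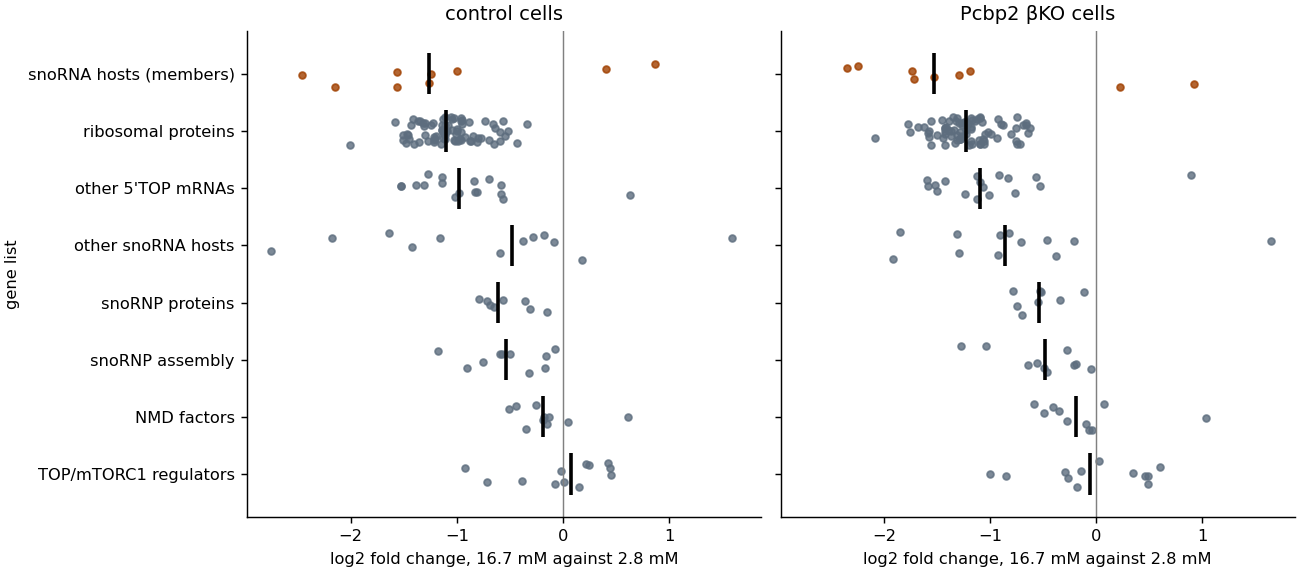
Log2 fold change for 16.7 mM against 2.8 mM glucose of each gene of 8 lists, in control cells (left) and Pcbp2 βKO cells (right); points are genes (their height within a row carries no value) and black bars are medians. The 9 hosts (top row) split into 7 genes at or below -0.997 and 2 above 0 in control cells, and the 79 ribosomal protein genes all lay below 0 in both.

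Across the 17 samples the 7 falling hosts varied together, with Pearson correlations of log2 CPM from 0.82 to 0.98 among their 21 pairs (median 0.94). *Snhg3* correlated with these 7 at -0.46 to -0.33 and *Snhg11* at -0.51 to -0.18. These points share libraries, and most of their spread is the contrast between the glucose concentrations. Genes most like the mean of the 9 standardized host levels, among those of at least 5 CPM, were *Rpl23* (r = 0.97), *2410006H16Rik* (0.96), *Gm5148* (0.96), *Abhd5* (0.96) and *Arpc5l* (0.96), followed by *Pmm1*, *Rps6*, *Dcxr*, *Ppp1r7* and *Agpat4* (0.95 to 0.96). *Rpl23* and *Rps6* encode ribosomal proteins.

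In the annotation several hosts, by their most abundant transcript, share exonic sequence with a neighbor, and whether counting used the strand is not stated. The neighbor of *Snhg1* on the opposite strand, *Slc3a2*, which encodes the heavy chain of amino acid transporters, was called lower in high glucose in both genotypes as well, with log2 fold changes of -1.08 and -0.98. *Znfx1* opposite *Zfas1* (-0.64 and -0.42), *Mcmdc2* opposite *Snhg6* (-0.16 and -0.09) and *Rcc1* on the same strand as *Snhg3* (-0.03 and 0.48) were not called. Reads of these pairs cannot be told apart where they overlap.

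Transcript length was compared with the change. Weighted by counts, the hosts were 439 to 1073 bases long, except *Snhg11* at 4846 bases. Genes over 400 and up to 800 bases, the class of 6 hosts, had a median log2 fold change of 0.01 in control cells with 7.51% called lower. Those over 800 and up to 1600 bases, the class of *Snhg1* and *Snhg5*, were at 0.01 with 8.67% called lower.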

How the data were processed

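For each of 17 samples of sorted β cells the authors deposited Kallisto tables of estimated counts and TPM per transcript of the GRCm39 mouse transcriptome, with neither pooled nor normalized between samples apart from the total of the TPM. The Kallisto version and the strand setting are not given in the sources used here. The deposited estimated counts, from 47385513 to 82419400 per sample, were summed per gene identifier and rounded. The TPM that the authors deposited are scaled to effective transcript length and a fixed total per sample, and were summed per gene to compare levels between genes.

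Genes passing edgeR's default filter (22784) were fitted with the 4 group means in edgeR 4.0.16 (R 4.3.3) with TMM scaling, and each of 5 contrasts was given to its quasi-likelihood F test. Calls required an adjusted p under 0.05 over all genes and a fold change over 1.5, as in the study. The study's batch factor was not used here, since its levels are not in the labels. The same test was run on 65504 transcripts. DESeq2 1.42.0, limma 3.58.1 and other scalings, filters and sample sets served as alternatives, and edgeR and DESeq2 were first tested on simulated data. There, at the same thresholds, 2.47% of the edgeR calls of genes and 20.6% of the DESeq2 calls were false. The simulation changed 200 of the 22784 genes, up or down by 1 or 2 on the log2 scale. Apart from these all groups had the same gene means, so that the shift in insulin was not modeled and these rates need not hold here. Replicate numbers 1 to 3 were taken to pair the control groups, since samples with one number deviated alike from their groups, with correlations of 0.12 to 0.26. In every other comparison 1 pair or more was at or under 0.1. Between the glucose concentrations of *Pcbp2* βKO cells, however, samples with the same number correlated at 0.0664 to 0.193. Those with different numbers were at -0.116 to 0.0445, so that these samples may be paired too. The fit reported used no pairing, and the replicate block was fitted in both genotypes. No 2 samples agreed within counting noise.

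The 9 genes and the comparison lists were chosen with earlier results of these data known. All 9 are named, other lists by up to 4 genes (the 2 most abundant called and the 2 most abundant not called for glucose in control cells) plus those called between genotypes. *Snhg16*, *Snhg18* and the lower entry of *Snhg4* were named after their values were seen. The Snhg7 symbol of the list had no match. Of the genes in these lists and beside the hosts, some are not reported here.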

Additional observations from a re-analysis of the deposited data

Results flagged for a closer look

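Within groups of 4 or 5 samples, 3 of the 27 sets of host values held a sample far from the others by Dixon's gap criterion, which chance alone passes in about 1 of 20 groups. The sets share samples and most hosts varied together, so that they are not separate draws and the 3 cannot be set against this rate. All 3 were the replicate 4 of a high-glucose group. *Gas5* in control cells at 16.7 mM was at 136 CPM in replicate 4, against 57.6 to 70.0 CPM in the other 3. In *Pcbp2* βKO cells at 16.7 mM, *Snhg1* was at 14.8 CPM in replicate 4 against 6.82 to 7.21 CPM in the other 4, and *Snhg12* was at 6.87 CPM against 1.77 to 2.22 CPM. Replicate 4 of control cells at 16.7 mM also had more RNA of other endocrine cells, with *Gcg* and *Irx2* at a sum of 1448 CPM against 260.4 to 353 CPM in the other 3 and *Ppy* at 631 CPM against 224 to 318 CPM, and the lowest insulin share, 22.3% of counts. Replicate 4 of *Pcbp2* βKO cells was within the range of its group in these, at 956 CPM of a range of 172 to 1301 CPM for *Gcg* and *Irx2*. Their part in the host levels was not tested.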

How the results depend on the processing

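In both glucose comparisons the 7 hosts called lower kept that direction under every alternative. In *Pcbp2* βKO cells they also stayed called throughout, whereas in control cells with 3 samples in low glucose the number of hosts called ranged from 3 to 8 when 1 sample was left out, and from 7 to 8 otherwise. *Zfas1*, *Snhg1* and *Snhg5* were called in each of these fits. With the replicate number as a block 8 hosts were called in control cells, the 7 lower ones and *Snhg11* higher, and the block changed no other call of a host gene. For the comparison lists it is given beside their counts where it moved them by over 1.5 times. The transcript count in control cells was least stable, with 5 called in the fit reported and 11 with the replicate block. It was 9 without 3 high-glucose samples, 17 by limma on log2(TPM + 1) and 0 to 10 when 1 sample was left out. Those 3 samples were replicate 4 of both genotypes and replicate 5 of *Pcbp2* βKO cells, all at 16.7 mM. Among the hosts, signs reversed for *Snhg3* and *Snhg11* alone. On log2(TPM + 1) and log2(TPM + 0.1) *Snhg3* was at -0.47 and -0.48 in control cells and at -0.82 and -0.84 in *Pcbp2* βKO cells, and *Snhg11* at -0.16 and -0.17 and at -0.18 and -0.24. By total counts alone *Snhg3* was at -0.26 in *Pcbp2* βKO cells. These scalings moved the median of all genes, by -0.35 and -0.47 for total counts in control and *Pcbp2* βKO cells, by -0.24 and -0.33 for log2(TPM + 1) and by -0.56 and -0.71 for log2(TPM + 0.1). Called genes over the whole table in control cells were 1629 higher and 1524 lower in the fit reported, and in all 4837 by total counts (782 higher, 4055 lower), 6975 on log2(TPM + 1) and 5024 with the replicate block. The call of *Snhg11* between genotypes was kept in every alternative, and 0 hosts were called for the interaction in any of them. A host that was not called may still have changed, since on simulated data edgeR recovered only part of the changed genes.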
